A study of Homo sapiens with 18 samples.

Results

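The transcripts of 6 neurotrophin genes and receptors were examined in OVCAR3 cells exposed to antibodies: the ligands BDNF and NTF3, and the receptors NTRK2 (TrkB), NTRK3 (TrkC), NGFR (p75NTR) and SORT1 (sortilin). They were chosen by symbol from 55765 gene symbols, with earlier results of these data known, and all 6 are given whatever their values. OVCAR3 is an established line of human high-grade serous ovarian carcinoma, and all cells were kept in medium with low serum. RNA was sequenced from 18 libraries in 2 series of 9, with 3 libraries in each of 6 groups. In the first series, cells were given natural human IgA or natural human IgG, neither raised against a chosen antigen, or nothing. For the second series they were given IgA against BDNF (BDNF IgA) or IgA against the tetraspanin TSPAN7 (TSPAN7 IgA), both purified from immortalised B cells out of tumours, or again nothing. Antibodies were used at 0.5 µg/ml for 24 h, although another description of the experiment gives 8 h. No library of the second series received IgG or non-specific IgA. Groups were therefore compared only within a series. The 3 libraries per group are described as separate experiments for the first series, while for the second only their number is given. There, p-values measure only the spread between these libraries, which may be technical.

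Neurotrophins are secreted growth factors, best known for keeping neurons alive and shaping synapses, and are also made by epithelial and tumour cells. They are made as precursors that proteases such as furin and plasmin cleave. Mature BDNF activates the receptor tyrosine kinase TrkB and NT-3, the product of NTF3, activates TrkC. p75NTR binds all mature neurotrophins with lower affinity, and together with sortilin it binds the uncleaved precursors.

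All 9 epithelial and serous ovarian markers reached 10 counts in a library of every group, and their summed level ranged from 4350 to 7150 CPM (read counts scaled to a common library size) over the 18 libraries. Of these 9, 2 were called higher and 3 lower with natural IgA than with IgG or in untreated cells. That is 55.6% in each comparison, beside 24.2% and 25.0% of all genes tested. KRT7 was among those called higher. When libraries were scaled by their totals alone, 0 of the 9 were called higher and 4 lower in each of these comparisons. WT1, a serous carcinoma marker, had 692 to 2809 counts with IgA against 4372 to 6330 in the other 6 libraries of its series, and SOX17 533 to 1307 against 2032 to 3300, with log2 fold changes against IgG of -1.17 (edgeR adjusted p = 0.00348) and -1.24 (edgeR adjusted p = 0.000281). In the second series, against untreated cells, 3 of the 9 were called higher and none lower with BDNF IgA. With TSPAN7 IgA 1 was higher, KRT7, and 2 were lower, MUC16 and WT1. Both shares were 33.3%, beside 7.67% and 8.54% of all genes tested. The summed level of 6 B cell markers was between 0.286 and 2.07 CPM, and that of 8 neural markers between 3.72 and 9.51 CPM. SOX10, a defining marker of Schwann cells, had 1 count in the BDNF IgA group and 0 in the others. The 9 libraries of the first series held 27920733 to 42371474 counts each, and those of the second 39254350 to 47381836. IgA replicate 3 stood apart, with 19.1% of its counts from the mitochondrial genome against 5.75% to 8.32% in the other 8 libraries of that series. In bulk RNA, fewer cells that make a transcript and less transcript per cell cannot be told apart.

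Levels of the 6 genes were first set against each other, per kilobase of the canonical transcript and on the CPM scale. In untreated cells of the first series SORT1 was the most abundant, at 52.0 ± 0.873 CPM per kilobase (SD, n = 3). NTF3 followed at 1.78 ± 0.298 and BDNF at 1.40 ± 0.143, and the mean ± SD ranges of these neighbours in the order overlapped. NGFR stood at 0.222 ± 0.0531 and NTRK2 at 0.0864 ± 0.0263. Divided by the length of all annotated exons instead, the levels were lower (39.9 for SORT1, 0.815 for NTF3, 0.719 for BDNF, 0.182 for NGFR and 0.0226 for NTRK2), and the order was the same in all 6 groups.

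In cells given IgA the order was different. BDNF was then at 4.42 ± 0.801 CPM per kilobase and NGFR at 2.54 ± 0.641, both above NTF3 at 1.27 ± 0.477. SORT1 remained first, at 46.4 ± 5.28, and NTRK2 stayed low, at 0.0903 ± 0.0618.

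In the second series the order was SORT1, BDNF, NTF3, NGFR and NTRK2 in all 3 groups. In its untreated cells the levels were 37.9 ± 1.15 for SORT1, 2.26 ± 0.141 for BDNF, 0.796 ± 0.0619 for NTF3, 0.223 ± 0.0584 for NGFR and 0.113 ± 0.0242 CPM per kilobase for NTRK2.

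**Figure D1:**
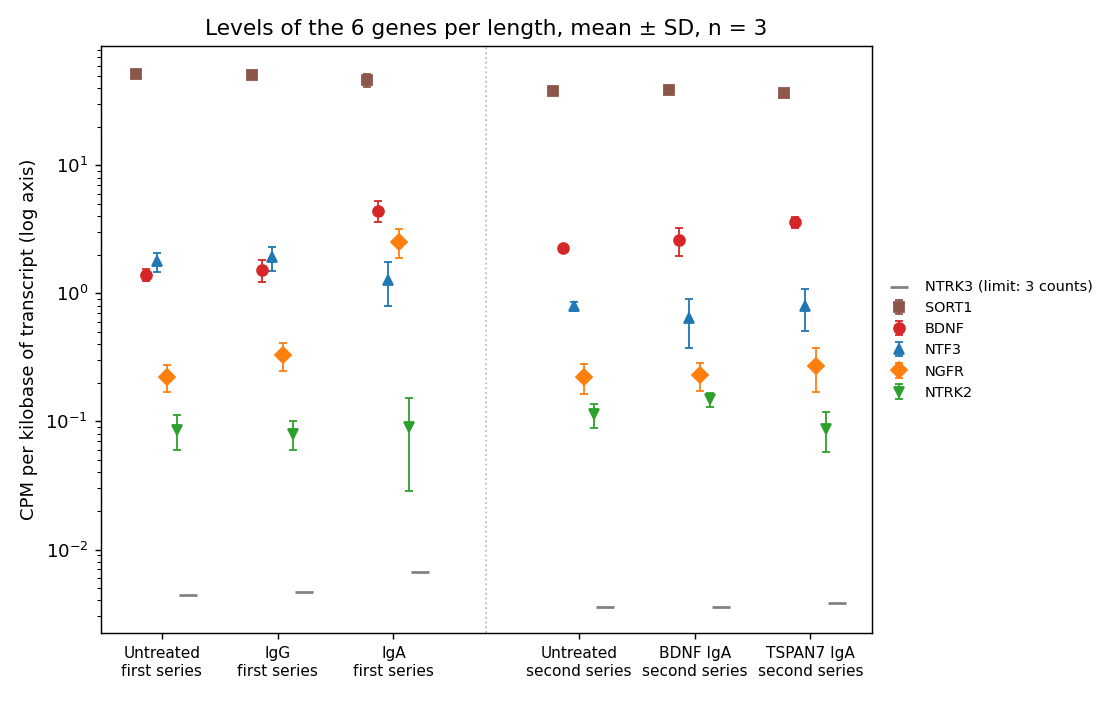
Levels of the 6 genes in each group, in CPM per kilobase of canonical transcript on a log axis. Points are means and bars the SD of 3 libraries, and the grey dashes give for NTRK3 the level of 3 counts in the smallest library of the group. BDNF and NGFR are higher in the IgA group than in the other 2 groups of the first series, while SORT1 stays at the top in all 6.

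NTRK3, the receptor for NT-3, was not detected in the first series: it had 0 counts in all 9 libraries. A count of 0 allows up to 3 counts, which in the smallest library of each group is 0.0884 CPM in untreated cells, 0.0935 CPM with IgG and 0.135 CPM with IgA. In the second series it had 3 counts in BDNF IgA replicate 2 and 0 in the other 8 libraries, with limits of 0.0717, 0.0715 and 0.0766 CPM in untreated, BDNF IgA and TSPAN7 IgA cells. These limits cover counting error only. NTRK3 did not pass the filter on low counts, and exact two-sided permutation tests of its CPM gave p = 1 in every comparison, where 3 against 3 libraries cannot go below 0.1.

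The counts of the other 5 genes passed the filter in both series and were tested with edgeR, with a threshold of 0.05 on the p adjusted over all genes tested. Natural IgA was compared with untreated cells and with natural IgG, which differs from it in class and may differ in other features of the preparation. These comparisons share the IgA libraries and are given side by side. BDNF and NGFR were higher with IgA in both, so 2 of 5 tested members were called in each, where the share of all 18012 genes called was 24.2% against IgG and 25.0% against untreated cells. Calls in the higher direction made up 12.6% and 12.9% of all genes. An unadjusted p under 0.05 was reached by 37.5% and 37.6% of all genes, and by the same 2 of the 5 members. NTF3, NTRK2 and SORT1 were not called.

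BDNF, on the minus strand of chromosome 11 (GRCh37 chr11:27676440-27743605), encodes the ligand of TrkB. Normalised counts, which put the 9 libraries of a series on their mean effective size, were 174, 199 and 214 in untreated cells. With IgG they were 261, 178 and 204. With IgA they were 544, 570 and 750.

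All 3 IgA libraries lay above all 6 others, and the IgG and untreated libraries overlapped. Such separation was found for 40.3% of all genes against IgG and 39.9% against untreated cells, and among the 5 members for BDNF and NGFR. The log2 fold change was 1.53 ± 0.19 (SE, n = 3 and 3) against IgG, with an adjusted p of 0.000157 by edgeR's quasi-likelihood test, and 1.66 ± 0.19 against untreated cells, with an adjusted p of 8.73e-05. IgA replicate 3, the library rich in mitochondrial counts, had the highest BDNF value. Without it the log2 fold change was 1.37 against IgG (edgeR adjusted p = 0.00012) and 1.502 against untreated cells (edgeR adjusted p = 5.38e-05).

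NGFR, on the plus strand of chromosome 17 (GRCh37 chr17:47572655-47592370), encodes p75NTR, a member of the tumour necrosis factor receptor superfamily. It showed the larger difference. Normalised counts were 31.1, 29.4 and 19.3 in untreated cells and 49.5, 39.2 and 29.6 with IgG. With IgA they were 378, 312 and 224.

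The IgA libraries lay far above the other 6 with no overlap, and IgA replicate 3 was here the lowest of its group. NGFR differed by a log2 fold change of 2.94 ± 0.29 (SE, n = 3 and 3) against IgG (edgeR adjusted p = 3.67e-05), a 7.69-fold difference, and 3.52 ± 0.30 against untreated cells (edgeR adjusted p = 1.14e-05), an 11.5-fold difference. Without IgA replicate 3 the values were 3.12 (edgeR adjusted p = 4.5e-06) and 3.70 (edgeR adjusted p = 1.17e-06). The counts behind these values were 24 to 35 per library in untreated cells, 27 to 53 with IgG and 142 to 337 with IgA. An antisense gene, NGFR-AS1, overlaps NGFR on the other strand. Without a statement that strand was used in counting, reads of the pair cannot be told apart. NGFR is also a marker of neural crest cells, and the summed level of the 8 neural markers was 8.0 to 9.51 CPM with IgA against 3.72 to 5.86 CPM in the other 6 libraries, with S100B and SOX10 at 0 in all IgA libraries. RBFOX3, a neuronal marker, was called higher with IgA, by 0.96 against IgG (edgeR adjusted p = 0.0162) and 0.99 against untreated cells (edgeR adjusted p = 0.0136). The fibroblast markers summed to 22.5 to 38.5 CPM with IgA against 18.6 to 24.9, and the B cell markers to 0.986 to 2.07 against 0.672 to 1.19, with MS4A1 at 0 in every library of the series. Among these, COL1A1 was called higher against IgG (0.64, edgeR adjusted p = 0.0216), and PTPRC was not called (0.99, edgeR adjusted p = 0.187). The RBFOX3 calls were lost under library totals alone (0.74 and 0.79) and without IgA replicate 1 (0.75 and 0.78), and the COL1A1 call under library totals alone (0.38) and without IgA replicate 3 (0.41), each also when some control libraries were left out. In the second series RBFOX3 was also called higher with BDNF IgA and with TSPAN7 IgA than in untreated cells. It had 95 to 133 and 90 to 121 counts there, against 45 to 78, while NGFR was not called. The 1 B cell marker tested in that series was called higher with TSPAN7 IgA, by 1.39 on the log2 scale. The markers named here, WT1 and SOX17 were singled out after their values were seen. The part of these markers, and of WT1 and SOX17, in the BDNF and NGFR values was not tested.

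**Figure D2:**
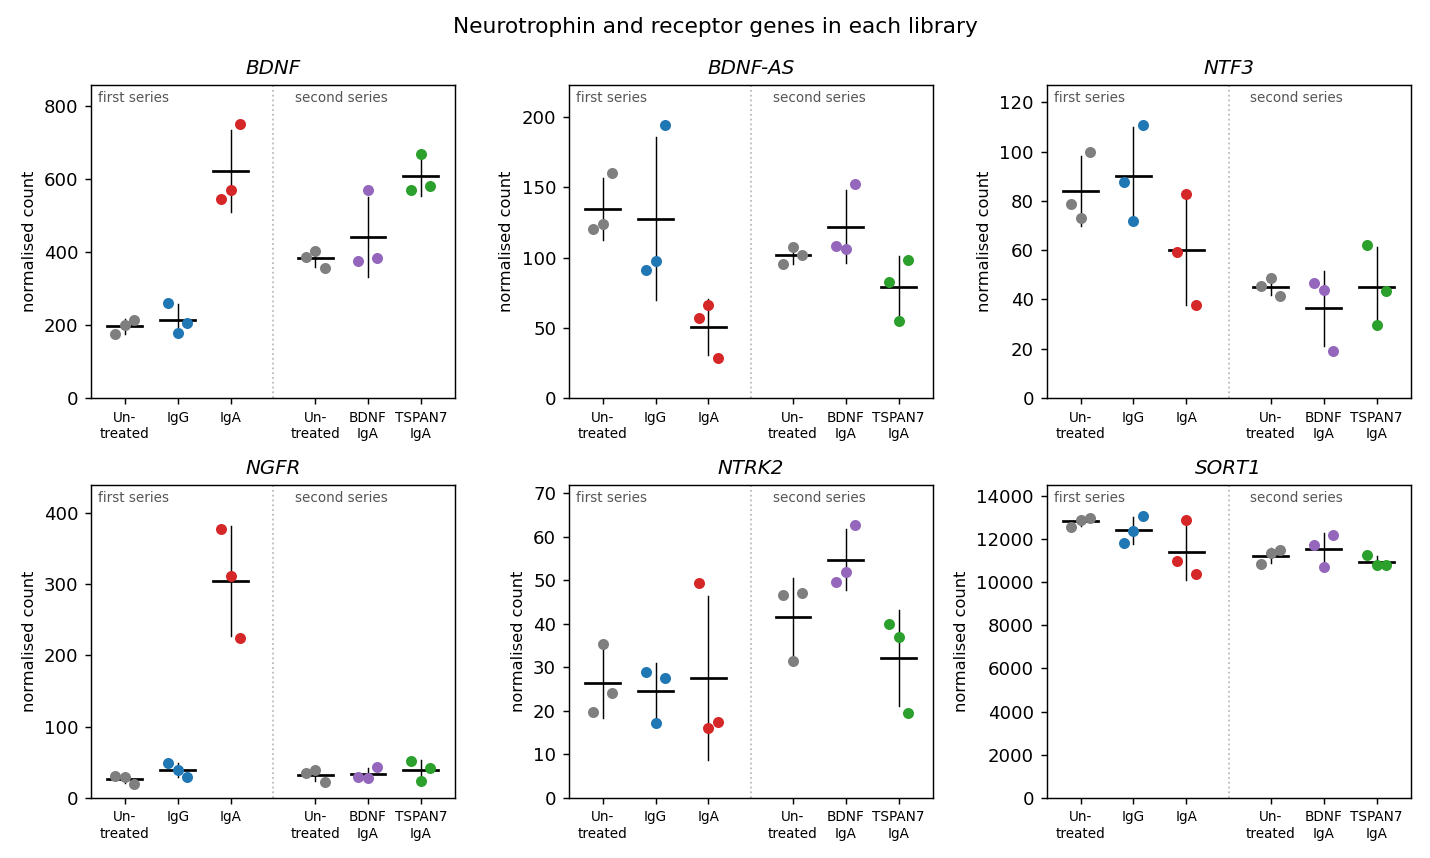
Normalised counts of the 5 tested genes and of the antisense gene BDNF-AS in each of the 18 libraries, by group. Points are libraries, thick bars the group means and thin bars the SD of 3 libraries, and the dotted line parts the series, which were scaled separately. BDNF and NGFR are high and BDNF-AS is low in the 3 IgA libraries of the first series, and NGFR has no such rise in the second series.

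NTF3, the gene of NT-3, had 78.9, 73.1 and 99.9 normalised counts in untreated cells and 87.7, 71.9 and 111 with IgG. With IgA they were 59.4, 82.9 and 37.9. The IgA group overlapped both others through its replicate 2. The log2 fold change of NTF3 was -0.56 ± 0.32 against IgG (edgeR adjusted p = 0.214) and -0.47 ± 0.32 against untreated cells (edgeR adjusted p = 0.308).

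NTRK2, the gene of the BDNF receptor TrkB, was near the lower end of what was tested. It had 19.7, 35.3 and 24.2 normalised counts in untreated cells, 28.9, 17.3 and 27.4 with IgG and 49.3, 16.0 and 17.4 with IgA. The IgA group held both the highest and the lowest of the 9 values. The log2 fold change against IgG was 0.18 ± 0.53 and its 95% interval ran from -0.96 to 1.32. The direction of NTRK2 in this series turned with the scaling of the libraries.

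SORT1, the gene of sortilin, was abundant and varied little. It had 12580, 12880 and 13000 normalised counts in untreated cells, 11800, 12370 and 13060 with IgG and 10980, 12890 and 10400 with IgA. The groups overlapped. Its log2 fold change was -0.12 against IgG, with a 95% interval from -0.33 to 0.10, and -0.17 against untreated cells, with an interval from -0.38 to 0.05 (edgeR adjusted p = 0.410 and 0.245).

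IgG was compared with untreated cells to see what this antibody preparation does. None of the 5 tested members was called by edgeR or DESeq2, and 0 had an unadjusted p under 0.05. Over all genes edgeR called 0%, and 0.494% had an unadjusted p under 0.05. The groups of all 5 members overlapped, and those of 6.75% of all genes did not. It was 0.13 ± 0.19 on the log2 scale for BDNF and 0.58 ± 0.31 for NGFR, whose 95% interval ran from -0.09 to 1.25.

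BDNF IgA, which binds the product of BDNF, and TSPAN7 IgA were each compared with the untreated cells of the second series and with each other. With BDNF IgA none of the 5 tested members was called by edgeR or DESeq2 and 0 had an unadjusted p under 0.05, where 7.67% of the 18732 genes tested were called (4.49% higher, 3.18% lower) and 22.1% had an unadjusted p under 0.05. With TSPAN7 IgA 1 of 5 was called against untreated cells, where 8.54% of all genes were called (4.46% higher, 4.08% lower), and 1 of 5 against BDNF IgA, where 7.92% were called (3.42% higher, 4.50% lower). In both cases the gene was BDNF, which was higher.

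BDNF had 387, 404 and 357 normalised counts in untreated cells of this series. With BDNF IgA it had 374, 568 and 382. With TSPAN7 IgA it had 569, 669 and 581.

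The TSPAN7 IgA libraries all lay above the other 6, although the lowest of them was within 1 normalised count of BDNF IgA replicate 2. Between TSPAN7 IgA and untreated cells BDNF alone among the 5 members had groups that did not overlap, as was so for 28.4% of all genes. Against untreated cells the log2 fold change with TSPAN7 IgA was 0.67 ± 0.12 (SE, n = 3 and 3, edgeR adjusted p = 0.00126), a 1.59-fold difference. With BDNF IgA it was 0.21 ± 0.12 (edgeR adjusted p = 0.354), and it was -0.02 without BDNF IgA replicate 2. Between these antibodies the log2 fold change was 0.46 ± 0.12 in favour of TSPAN7 IgA (edgeR adjusted p = 0.0220). In edgeR that call was lost without BDNF IgA replicate 1 (adjusted p = 0.14), without BDNF IgA replicate 3 (adjusted p = 0.135) and without TSPAN7 IgA replicate 2 (adjusted p = 0.148), and the value was 0.68 without BDNF IgA replicate 2.

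NGFR was not called in this series. It had 35.5, 38.4 and 22.6 normalised counts in untreated cells, 29.3, 27.97 and 42.8 with BDNF IgA and 51.9, 23.2 and 42.2 with TSPAN7 IgA. All 3 groups overlapped. Its log2 fold change was 0.06 with BDNF IgA, with a 95% interval from -0.61 to 0.73, and 0.29 with TSPAN7 IgA, with an interval from -0.37 to 0.95 (edgeR adjusted p = 0.936 and 0.650). Whether these responses differ from that to natural IgA was not tested, since the antibodies were never in the same series.

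NTRK2 had 46.6, 31.4 and 47.0 normalised counts in untreated cells, 49.5, 51.9 and 62.7 with BDNF IgA and 39.9, 36.9 and 19.5 with TSPAN7 IgA. The BDNF IgA libraries were above all others. Of the 5 tested members only NTRK2 did not overlap between BDNF IgA and untreated cells, where 24.8% of all genes did not. The groups of 2 of the 5 tested members, BDNF and NTRK2, did not overlap between TSPAN7 IgA and BDNF IgA, as was so for 23.6% of all genes. Between them NTRK2 differed by -0.76 ± 0.28 on the log2 scale, which did not pass the threshold (edgeR adjusted p = 0.0958).

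NTF3 and SORT1 were not called in this series. NTF3 lay between 19.0 and 61.9 normalised counts over its 9 libraries, and the log2 fold change was -0.31 ± 0.31 with BDNF IgA and -0.00 ± 0.31 with TSPAN7 IgA. SORT1 lay between 10720 and 12170, and its log2 fold change was 0.04 ± 0.05 with BDNF IgA and -0.04 ± 0.05 with TSPAN7 IgA. The SORT1 intervals, from -0.06 to 0.14 and from -0.14 to 0.06, were the narrowest of the 5 members.

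**Figure D3:**
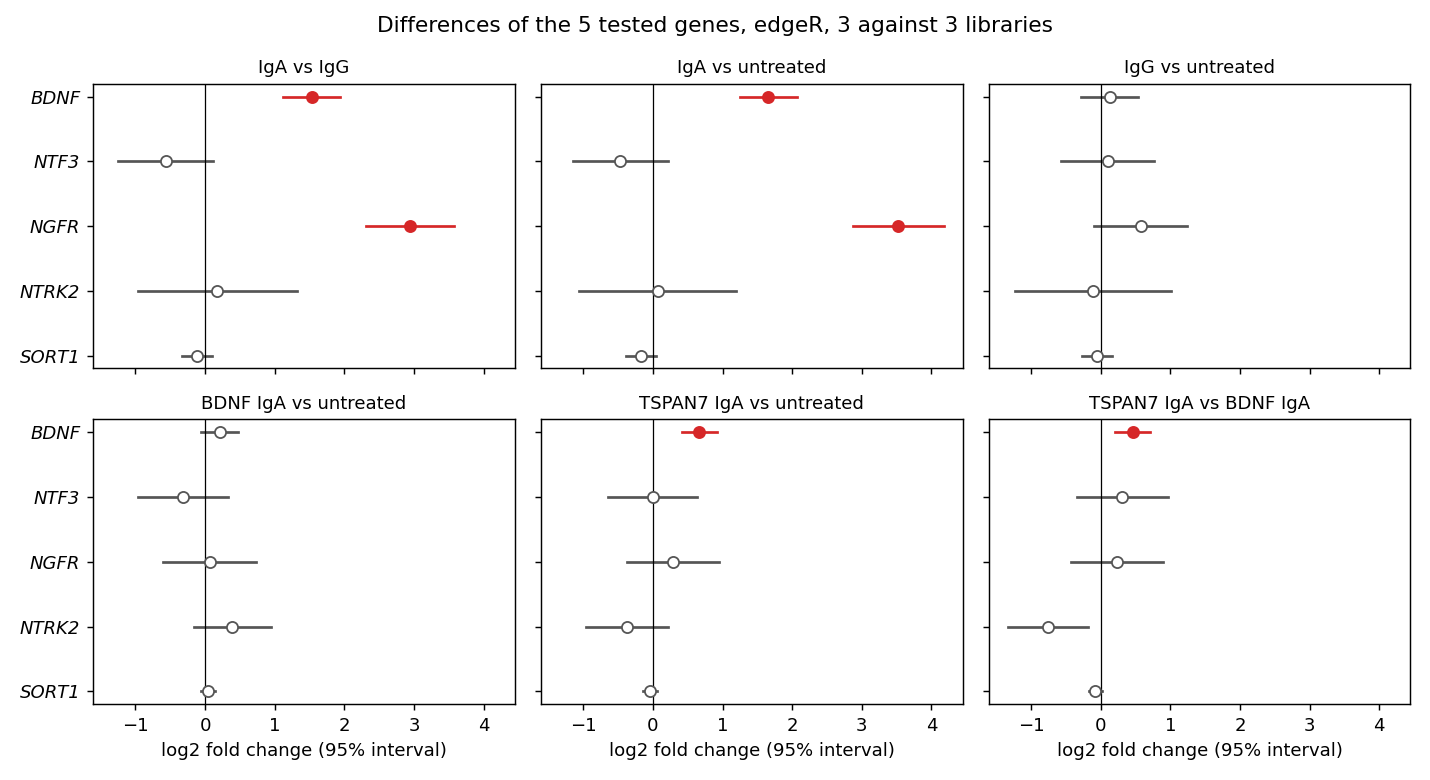
Log2 fold changes of the 5 tested genes in 6 comparisons, each within a series, 3 against 3 libraries. Points are edgeR estimates and lines 95% intervals, and filled red points passed an adjusted p of 0.05. BDNF is filled in 4 panels and NGFR in the 2 panels with natural IgA, and the intervals of NTRK2 are wide throughout the first series.

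BDNF is overlapped on the other strand by the antisense gene BDNF-AS (GRCh37 chr11:27528377-27719778), a long non-coding RNA known to lower BDNF transcript levels in other cells. Its normalised counts were 120, 124 and 160 in untreated cells, 91.5, 97.4 and 194 with IgG and 57.2, 66.0 and 28.4 with IgA. The 3 IgA libraries lay below all 6 others, with IgA replicate 3 the lowest. BDNF-AS had a log2 fold change of -1.31 ± 0.36 against IgG (edgeR adjusted p = 0.0185) and -1.39 ± 0.36 against untreated cells (edgeR adjusted p = 0.0131). In edgeR the first call was lost without IgG replicate 3 (-0.88, adjusted p = 0.104) and the second without untreated replicate 3 (-1.25, adjusted p = 0.0582). When only the 6 libraries compared were fitted, the first had an edgeR adjusted p of 0.0508. As with NGFR, reads of this pair cannot be told apart without strand, and both values are uncertain to that extent.

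Among the libraries of the second series, BDNF-AS had 95.2, 107 and 102 normalised counts in untreated cells, 108, 106 and 152 with BDNF IgA and 82.9, 54.8 and 98.5 with TSPAN7 IgA. The TSPAN7 IgA libraries lay below those with BDNF IgA. They differed by -0.63 ± 0.20 on the log2 scale, which missed the threshold (edgeR adjusted p = 0.0533). The difference was called under 5 alternatives, namely the replicate block (adjusted p = 0.0328), library totals alone (0.0496), no low-count filter (0.0089), and the fits without BDNF IgA replicate 2 (0.014) or TSPAN7 IgA replicate 3 (0.0379). Against untreated cells it was -0.37 ± 0.20 with TSPAN7 IgA (edgeR adjusted p = 0.304).

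BDNF is transcribed from several starts, and counts per gene do not say which was used. RefSeq gives 5 BDNF promoter windows of 300 bases on GRCh38.p14, each from 250 bases before a start to 50 after it. They were searched on both strands for the letters of an NF-kB site (GGANTTTCC), an AP-1 site (TGANTCA), a cAMP response element (TGACGTCA), the core of that element (CGTCA, which lies within the full element) and an E-box (CACGTG, its own reverse complement), which transcription factors such as USF1, USF2 and BHLHE40 bind. The share of all 35116 promoters with a match was 1.64%, 7.71%, 1.85%, 24.6% and 7.26%, in that order. Of the 5 BDNF windows, 1 held the E-box, at position -42 from the start, and 1 held the core of the cAMP response element, at position -47. These 2 windows are shown because they hold the letters read by factors whose genes are among the regulators described next. They are given 5′ to 3′ on the minus strand, with the match in capitals and starts numbered from the most upstream.

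BDNF start 2, chr11:27720730-27721029: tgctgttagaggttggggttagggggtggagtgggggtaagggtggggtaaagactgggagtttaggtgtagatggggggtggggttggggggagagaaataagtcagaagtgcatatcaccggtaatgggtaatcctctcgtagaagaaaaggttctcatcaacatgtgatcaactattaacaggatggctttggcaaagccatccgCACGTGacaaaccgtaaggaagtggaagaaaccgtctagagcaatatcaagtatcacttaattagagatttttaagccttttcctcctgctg

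BDNF start 4, chr11:27701572-27701871: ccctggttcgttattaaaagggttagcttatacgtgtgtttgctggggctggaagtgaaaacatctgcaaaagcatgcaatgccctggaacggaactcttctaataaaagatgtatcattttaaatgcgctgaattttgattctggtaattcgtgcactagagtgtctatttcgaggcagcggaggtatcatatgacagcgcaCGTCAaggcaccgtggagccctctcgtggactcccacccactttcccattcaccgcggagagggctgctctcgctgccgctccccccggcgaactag

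The other 3 BDNF windows held none of the 5 motifs, which says only that these letters were not in those windows. NTF3 has 2 windows in the same table, NTRK2 4, NTRK3 1 and SORT1 2. Of these, 1 NTRK2 window held the core of the cAMP response element, at 2 places.

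Of 22 regulators of BDNF transcription, 21 were tested. With natural IgA 7 were higher and none lower against IgG, and 7 were higher and 1 lower against untreated cells. That is 33.3% and 38.1% called, beside 24.2% and 25.0% of all genes. When libraries were scaled by their totals alone, which moved the median of all genes from -0.01 to -0.25 and from -0.01 to -0.22 in these comparisons, the counts became 4 higher and 5 lower, and 4 and 4. The median log2 fold change of the list was 0.06 against IgG and 0.13 against untreated cells, and -0.01 over all genes in both. MEF2C, an activity-dependent activator, had the largest difference: it lay between 323 and 385 normalised counts with IgA, between 61.5 and 85.9 with IgG and between 73.7 and 99.2 in untreated cells. Its log2 fold change was 2.25 ± 0.21 against IgG (edgeR adjusted p = 2.78e-05) and 2.08 ± 0.21 against untreated cells (edgeR adjusted p = 3.83e-05).

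BHLHE40, a repressor that binds E-boxes, lay between 6857 and 14210 normalised counts with IgA and between 2220 and 3252 in the other 6 libraries. Its log2 fold change was 1.95 ± 0.22 against IgG (edgeR adjusted p = 9.08e-05) and 1.93 ± 0.22 against untreated cells. NFKB1, the gene of the p105 and p50 subunits of NF-kB, rose by 1.11 ± 0.11 on the log2 scale against IgG (edgeR adjusted p = 3.80e-05) and by 1.18 ± 0.11 against untreated cells.

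With the specific antibodies 1 of 21 was called with BDNF IgA and 2 with TSPAN7 IgA against untreated cells, or 4.76% and 9.52%, near the 7.67% and 8.54% of all genes. NFATC4, a calcium-dependent factor, was higher with BDNF IgA than in untreated cells, by 0.68 ± 0.13 on the log2 scale (edgeR adjusted p = 0.00242). For BHLHE40 the value with TSPAN7 IgA was -0.23 ± 0.05 (edgeR adjusted p = 0.00414), and leaving out replicate 2 of that group ended the call (adjusted p = 0.0546). CRTC1, a CREB co-activator, was lower at -0.18 ± 0.06 (edgeR adjusted p = 0.0495), a call lost under 10 of the alternatives tried.

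Other genes of the family were NTF4, a further TrkB ligand, and the sortilin relatives SORCS1, SORCS2, SORCS3 and SORL1, of which SORCS3 was too low to test. SORCS1 was lower with natural IgA and with TSPAN7 IgA. With natural IgA it had 423, 337 and 251.2 normalised counts, against 638, 788 and 1133 with IgG and 779, 651 and 1034 in untreated cells. Its log2 fold change was -1.33 ± 0.24 against IgG (edgeR adjusted p = 0.00198) and -1.28 ± 0.24 against untreated cells (edgeR adjusted p = 0.00230). With TSPAN7 IgA it had 288, 221 and 243, against 450, 433 and 461 in untreated cells, a log2 fold change of -0.84 ± 0.11 (edgeR adjusted p = 5.01e-05). With BDNF IgA it had 410, 317 and 420, and the log2 fold change of -0.23 was not called (edgeR adjusted p = 0.223). TSPAN7 IgA was also below BDNF IgA, with a log2 fold change of -0.61 ± 0.12 (edgeR adjusted p = 0.00239).

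SORCS2 was higher with BDNF IgA than in untreated cells, by 0.37 ± 0.08 on the log2 scale (edgeR adjusted p = 0.00371). With TSPAN7 IgA the value was 0.24 ± 0.08 (edgeR adjusted p = 0.0569), not called here but called under 4 alternatives, among them the replicate block (adjusted p = 0.0394) and DESeq2 (0.0474), and SORCS2 was not called between the antibodies (edgeR adjusted p = 0.325). SORL1 was lower with TSPAN7 IgA by a log2 fold change of -0.17 (edgeR adjusted p = 0.0477). That call was lost under library totals alone (adjusted p = 0.0505) and with repeated rows of the counts kept (0.0513). It was also lost when any of the 3 untreated replicates or TSPAN7 IgA replicate 2 or 3 was left out. With natural IgA neither gene was called. SORCS2 was at 0.29 against IgG and 0.19 against untreated cells (edgeR adjusted p = 0.35 and 0.55), and SORL1 at -0.17 and -0.13 (edgeR adjusted p = 0.32 and 0.46). NTF4 had 0 to 33 counts per library and was not called in any comparison.

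Of 12 genes that process proneurotrophins, 8 were tested. With natural IgA 2 were higher against IgG and 3 against untreated cells, and none was lower, although under library totals alone 1 and 2 were lower. The shares called, 25.0% and 37.5% of 8 genes, stand beside 24.2% and 25.0% of all genes. PLAT, tissue plasminogen activator, lay between 694 and 1224 normalised counts with IgA and between 422 and 463 in the other 6 libraries, with a log2 fold change of 1.13 ± 0.18 against IgG (edgeR adjusted p = 0.000805). FURIN, the convertase that cleaves proBDNF in the secretory pathway, rose by 0.73 ± 0.12 against IgG (edgeR adjusted p = 0.000879) and by 0.80 ± 0.12 against untreated cells on the log2 scale. PCSK5 was higher against untreated cells (1.02 ± 0.30, edgeR adjusted p = 0.0265), a call lost without IgA replicate 3 (0.44, adjusted p = 0.072) and when any of the 3 untreated replicates was left out.

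Against untreated cells, 1 of the 8 tested processing genes was called with BDNF IgA and 0 with TSPAN7 IgA. These shares, 12.5% and 0%, stand beside 7.67% and 8.54% of all genes. Between the antibodies 2 of 8 were called, or 25.0% beside 7.92%. MMP7, a protease that cleaves proBDNF, was higher with BDNF IgA than in untreated cells, by 1.01 ± 0.20 on the log2 scale (edgeR adjusted p = 0.00261). It lay between 117 and 239 normalised counts with BDNF IgA, between 86.0 and 90.2 in untreated cells and between 84.5 and 104 with TSPAN7 IgA. Between TSPAN7 IgA and BDNF IgA, MMP7 had a log2 fold change of -0.93 ± 0.20 (edgeR adjusted p = 0.00555), a call lost without BDNF IgA replicate 3 (-0.66, adjusted p = 0.0701). CPE, which sorts proBDNF, was likewise below its BDNF IgA level in TSPAN7 IgA cells (-0.34, edgeR adjusted p = 0.0116), and this call was lost when any of 4 libraries was left out.

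Among 18 partners and shedding enzymes of p75NTR, all tested, 4 were higher and none lower with natural IgA against IgG, and 6 were higher and none lower against untreated cells. The first share, 22.2%, is near the 24.2% of all genes, and the second is 33.3% beside 25.0%. Under library totals alone this was 1 higher and 2 lower, and 1 and 1. The median log2 fold change was 0.11 and 0.10. RIPK2, a kinase that binds the death domain of p75NTR, lay between 2046 and 2231 normalised counts with IgA and between 880 and 976 in the other 6 libraries. Its log2 fold change was 1.19 ± 0.10 against IgG (edgeR adjusted p = 8.74e-06) and 1.27 ± 0.10 against untreated cells (edgeR adjusted p = 4.26e-06). ARHGDIA, a GDP dissociation inhibitor, was higher against IgG by 0.41, a call that was lost under library totals alone (0.18), without IgA replicate 1 (0.34) and without IgG replicate 3 (0.29). RTN4R, the Nogo receptor, was higher against untreated cells by 0.58, a call lost in the same way (0.37) and without untreated replicate 2 (0.50) or 3 (0.61).

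Of the same 18 genes, 3 were higher with BDNF IgA and 2 with TSPAN7 IgA, and none was lower, or 16.7% and 11.1% called beside 7.67% and 8.54% of all genes. ADAM10, a sheddase, was higher with both antibodies: by 0.22 ± 0.04 with BDNF IgA (edgeR adjusted p = 0.00261) and by 0.21 ± 0.04 with TSPAN7 IgA (edgeR adjusted p = 0.00339) on the log2 scale. ADAM17, which cleaves p75NTR, was higher with BDNF IgA by 0.22 ± 0.06 (edgeR adjusted p = 0.0176), and this call was lost when any of 4 libraries was left out. NGFRAP1 with BDNF IgA (0.20) and IRAK1 with TSPAN7 IgA (0.15) were also called and also rested on single libraries.

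Of 23 adaptors and signalling proteins of the Trk receptors, 22 were tested. With natural IgA 2 were higher and 4 lower against IgG and 3 were higher and 4 lower against untreated cells, while under library totals alone none was higher and 9 and 7 were lower. The shares called, 27.3% and 31.8%, stand beside 24.2% and 25.0% of all genes. GAB2, a docking protein, fell by 0.67 ± 0.20 on the log2 scale against IgG (edgeR adjusted p = 0.0280), which was lost without IgG replicate 3 (-0.36, adjusted p = 0.138), IgA replicate 1 (-0.70) or IgA replicate 2 (-0.63). PIK3R1, the regulatory subunit of PI3 kinase, fell by 0.54 ± 0.13 (edgeR adjusted p = 0.00875). SHC1, an adaptor that binds active Trk receptors, rose by 0.50 ± 0.10 (edgeR adjusted p = 0.00300), which was lost under library totals alone (0.26, adjusted p = 0.109). In the second series, against untreated cells, 2 of the 22 were higher and none lower with BDNF IgA. With TSPAN7 IgA 1 was higher, CRKL, and 1 was lower, GAB2. Both shares were 9.09%, near the 7.67% and 8.54% of all genes. GAB2 had a log2 fold change of -0.30 ± 0.06 with TSPAN7 IgA (edgeR adjusted p = 0.00224). FRS3 (0.53 ± 0.13) and SQSTM1 (0.18 ± 0.05) were higher with BDNF IgA, and each call was lost when any of 3 libraries was left out.

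**Figure D4:**
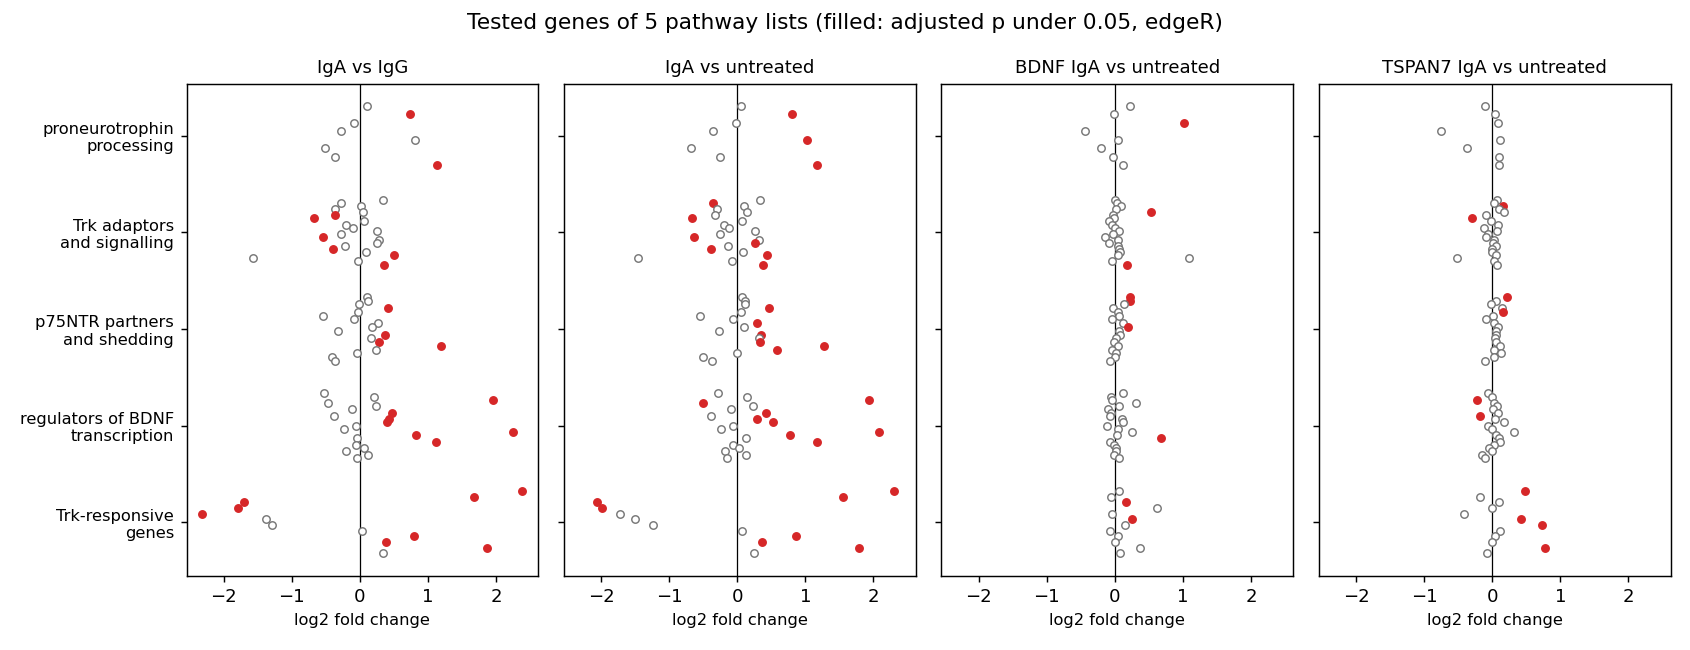
Log2 fold changes of every tested gene in 5 lists of neurotrophin pathway genes, in 4 comparisons. Each point is a gene, spread vertically within its list for legibility, and filled points passed an adjusted p of 0.05 by edgeR. Points spread furthest among the Trk-responsive genes and regulators of BDNF transcription with natural IgA, where CYR61 is at 2.38 against IgG, and lie closer to 0 in the second series.

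Genes that Trk signalling is known to induce did not move one way. Of 14 listed, 12 were tested, and with natural IgA 5 were higher and 3 lower against IgG and 5 were higher and 2 lower against untreated cells, or 66.7% and 58.3% called beside 24.2% and 25.0% of all genes. Under library totals alone it was 4 higher and 4 lower, and 4 and 3. CYR61, a matricellular protein, lay between 30090 and 38650 normalised counts with IgA and between 5372 and 8145 in the other 6 libraries, with a log2 fold change of 2.38 ± 0.16 against IgG (edgeR adjusted p = 1.01e-06). NR4A1, an orphan nuclear receptor, rose by 1.86 ± 0.18 on the log2 scale (edgeR adjusted p = 2.78e-05). EGR1, a zinc finger factor, moved the other way: it lay between 1684 and 7058 with IgA, between 8807 and 17890 with IgG and between 10070 and 22590 in untreated cells, a log2 fold change of -1.71 ± 0.42 against IgG (edgeR adjusted p = 0.0114).

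With TSPAN7 IgA 4 of the 12 were higher than in untreated cells and none was lower, where 4.46% of all genes were called higher. FOSB, an AP-1 subunit, lay between 2631 and 2943 normalised counts against 1580 to 1780, a log2 fold change of 0.73 ± 0.07 (edgeR adjusted p = 2.02e-07). NR4A1 was higher by 0.78 ± 0.14 (edgeR adjusted p = 0.000758) and CYR61 by 0.48 ± 0.09 (edgeR adjusted p = 0.00130). With BDNF IgA 2 of the 12 were called, beside 7.67% of all genes, FOS (0.25 ± 0.05, edgeR adjusted p = 0.00314) and EGR1 (0.17 ± 0.05, edgeR adjusted p = 0.0373), and the second call was lost when any of 4 libraries was left out.

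The nearest protein-coding genes beside BDNF are LIN7C and LGR4 on one side and KIF18A and METTL15 on the other. With natural IgA LGR4, a receptor for R-spondins, was lower, with log2 fold changes of -0.79 ± 0.15 against IgG (edgeR adjusted p = 0.00307) and -0.89 ± 0.15 against untreated cells (edgeR adjusted p = 0.00135), and the other 3 were not called. Beside NGFR, ZNF652 was lower, at -0.65 ± 0.15 against IgG (edgeR adjusted p = 0.00682), and PHB, NXPH3 and SPOP were not called. No neighbour of either gene was called higher with natural IgA.

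The genes whose log2 CPM was most like that of BDNF were ranked by Pearson's r over the 9 libraries of a series, as a description, since these libraries share their groups and depth. In the first series, among 13514 genes, they were LAMA3 (r = 0.998), ITGB3 (0.992), PRDM10 (0.992), PTTG1IP (0.988) and SEC14L1 (0.987). In the second, among 14082, they were IL6 (r = 0.990), RTTN (0.989), THBS1 (0.988), PTPRR (0.980) and AXL (0.979). The series had none of these genes in common.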

How the data were processed

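RNA of OVCAR3 cells was sequenced in 18 libraries. The deposited values are raw read counts per gene: per the methods, the authors trimmed reads with cutadapt 1.8.1, mapped them with STAR on GRCh37 and ran featureCounts per gene, while the submitters' processing notes list HTSeq 0.6.1. Strand use and molecular identifiers are not given in the sources used here, so limits from a count of 0 cover counting error only. The second table repeated 2055 rows exactly, and these repeats were removed, which left 55765 symbols in both.

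Each series of 9 libraries was analysed alone in R 4.3.3, with the low-count filter of edgeR 4.0.16 (filterByExpr), TMM scaling and the quasi-likelihood test over its 3 groups, adjusted by Benjamini-Hochberg over all genes. Standard errors were derived from the F statistic as the absolute log2 fold change over its root, and intervals are 95%. Levels were divided by the length of the canonical transcript of GENCODE mapped to GRCh37, or by all annotated exons. Alternatives were DESeq2 1.42.0, RLE scaling, library totals alone, other low-count filters, only the 6 libraries compared, no mitochondrial or ribosomal RNA genes, the repeated rows kept, a replicate block, and each replicate left out.

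The members, gene lists and tests were chosen with earlier results of these data known. All members, BDNF-AS and the other neurotrophins and receptors were named whatever their values, apart from a few genes that are not reported here. From each other list up to 3 called genes per comparison were named, those with the largest fold changes and a mean of 50 or more normalised counts in a group, along with the 2 nearest protein-coding genes on each side of called members and the 5 genes most correlated with BDNF.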

Additional observations from a re-analysis of the deposited data

How the results depend on the processing

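The members called were the same in number under every alternative other than leaving out a library. Leaving out single libraries moved only the count between TSPAN7 IgA and BDNF IgA, which ranged from 0 to 2, with SORT1 called beside BDNF without BDNF IgA replicate 2. With library totals alone, the share of calls that were higher went from 51.9% to 19.4% for IgA against IgG, from 51.4% to 23.3% for IgA against untreated cells and from 43.2% to 33.9% for TSPAN7 IgA against BDNF IgA, while BDNF was at 1.28 and 1.44 and NGFR at 2.72 and 3.33 on the log2 scale with IgA. Under the same scaling NTRK2 turned to -0.0489 against IgG and -0.13 against untreated cells, and NTF3 with TSPAN7 IgA to 0.000107. Deviations of same-numbered libraries correlated at -0.0686 to 0.247 in the first series and at -0.0168 to 0.0887 in the second. The highest, 0.247, was between untreated replicate 3 and IgG replicate 3. Untreated replicate 3 was at -0.210 with IgG replicate 1 and at -0.095 with IgG replicate 2. With a replicate block BDNF was at 1.53 for IgA against IgG, no member's call changed, and NTRK2 for IgA against untreated cells turned to -0.0815. Between IgG and untreated cells 2 genes were called with no low-count filter.

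Uncalled log2 fold changes that changed sign when single libraries were left out had these ranges. For IgA against IgG and against untreated cells, NTRK2 ranged from -0.56 to 0.46 and from -0.67 to 0.35. For IgG against untreated cells the ranges were -0.0404 to 0.25 for BDNF, -0.0739 to 0.24 for NTF3, -0.28 to 0.16 for NTRK2 and -0.51 to 0.11 for BDNF-AS. For BDNF IgA against untreated cells they were -0.0182 to 0.31 for BDNF, -0.16 to 0.21 for NGFR and -0.00488 to 0.0845 for SORT1. For TSPAN7 IgA against untreated cells the range was -0.31 to 0.23 for NTF3. For TSPAN7 IgA against BDNF IgA they were -0.00445 to 0.54 for NTF3 and -0.0317 to 0.50 for NGFR. The causes were not tested. NTRK3 and SORCS3 were too low for any statement on a difference.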
